A study of Rattus norvegicus with 4 samples.

Results

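Voltage-gated sodium channels were followed through 9 of their subunit genes in rat trigeminal nerve tissue, the alpha subunits Scn1a, Scn2a, Scn3a, Scn8a, Scn9a, Scn10a and Scn11a and the beta subunits Scn2b and Scn4b. They were chosen by symbol from the list of measured genes, and all 9 were found among its 32623 genes. Expression was read by Visium spatial transcriptomics, in which a tissue section lies on an array of barcoded spots and each RNA molecule caught by its poly(A) tail is counted once by a unique molecular identifier (UMI). A spot covers a small patch of tissue and can hold several cells or parts of them.

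The trigeminal neuralgia group (TN) had 3 capture areas, TN1, TN2 and TN3, each with the root, ganglion and proximal branches of 1 animal whose trigeminal root had been compressed on that side. The healthy control group (HC) had 1 capture area, which held tissue of 2 animals that cannot be told apart in the counts. All were adult male Sprague–Dawley rats, labelled wild type, and no transgene was used. The methods describe the controls as sham-operated, whereas the series description takes HC from the uninjured side of TN animals, so a comparison of TN with HC may set 2 sides of the same animals against each other. The areas held 1256 to 2013 spots and 23546025 to 41335930 UMIs, with a median of 9487 UMIs per spot in TN1, 14480 in TN3, 14616 in HC and 30808 in TN2. The areas are told apart in the deposited counts by a barcode suffix, read here in the order in which the series description lists them. Of the array barcodes, which are the same set in every area, 2337 occurred in more than 1 area. The condition and the capture area cannot be told apart, because HC was 1 area and gave no spread of its own.

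Sodium channel alpha subunits form the pore that opens when the membrane depolarises and carries the rising phase of the action potential, and beta subunits are single-span membrane proteins that set gating and anchor the pore. Sensory neurons of pain pathways are known for Scn9a (Nav1.7), Scn10a (Nav1.8) and Scn11a (Nav1.9), and central neurons for Scn1a, Scn2a and Scn8a (Nav1.1, Nav1.2 and Nav1.6). Scn3a (Nav1.3) is mainly embryonic. Carbamazepine, the usual drug for trigeminal neuralgia, blocks these channels.

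The genes stand in groups on the rat genome (RefSeq, GRCr8). Scn3a, Scn2a, Scn1a and Scn9a lie in that order on chromosome 3, Scn10a and Scn11a lie near each other on chromosome 8, and Scn2b and Scn4b are direct neighbours elsewhere on chromosome 8. Promoter windows, taken as the 250 bases before the start of the RefSeq transcript, were found for 8 of the 9 members. The windows of the 3 pain-related alpha subunits, whose levels followed each other across regions, and that of Scn4b, which was high in ganglion and central neuron regions alike, are shown with CpG dinucleotides in capitals.

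Scn9a promoter, GRCr8 chr3:71701378-71701627, minus strand: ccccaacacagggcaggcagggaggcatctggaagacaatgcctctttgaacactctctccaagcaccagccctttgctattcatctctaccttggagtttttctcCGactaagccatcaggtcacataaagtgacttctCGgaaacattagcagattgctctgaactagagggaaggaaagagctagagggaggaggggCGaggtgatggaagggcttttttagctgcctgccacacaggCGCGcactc

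Scn10a promoter, GRCr8 chr8:128340299-128340548, minus strand: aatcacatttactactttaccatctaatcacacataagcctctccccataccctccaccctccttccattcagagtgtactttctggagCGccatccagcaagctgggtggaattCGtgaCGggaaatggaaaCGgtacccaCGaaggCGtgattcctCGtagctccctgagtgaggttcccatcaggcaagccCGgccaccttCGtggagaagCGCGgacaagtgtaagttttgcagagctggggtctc

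Scn11a promoter, GRCr8 chr8:128444719-128444968, minus strand: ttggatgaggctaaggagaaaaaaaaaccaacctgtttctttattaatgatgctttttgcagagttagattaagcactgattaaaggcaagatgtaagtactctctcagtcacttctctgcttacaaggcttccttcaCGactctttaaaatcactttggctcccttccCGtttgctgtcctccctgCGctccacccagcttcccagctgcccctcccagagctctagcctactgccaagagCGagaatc

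Scn4b promoter, GRCr8 chr8:54343623-54343872, plus strand: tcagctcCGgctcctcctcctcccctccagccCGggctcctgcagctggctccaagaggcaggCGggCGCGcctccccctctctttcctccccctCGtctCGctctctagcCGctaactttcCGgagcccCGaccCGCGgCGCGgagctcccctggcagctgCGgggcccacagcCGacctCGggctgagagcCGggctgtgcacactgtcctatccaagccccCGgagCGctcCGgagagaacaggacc

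The Scn4b window held 21 CpG dinucleotides and 71.6% G and C, and that of Scn8a, not printed, held 53 and 86%. The windows of Scn9a, Scn10a and Scn11a held 5, 11 and 4 CpG, with 52.4%, 53.2% and 46.4% G and C. Those of Scn2a, Scn3a and Scn2b held 4, 4 and 1. The median over 33465 windows of all genes was 5 CpG and 51.2% G and C. The letters TATAAA, read on both strands, were in none of the 8 member windows and in 12.9% of all windows, CCAAT was in none of the 8 and in 34% of all, and GGGCGG was in that of Scn8a alone among the 8 and in 30.5% of all. TGANTCA was in that of Scn3a alone among the 8 and in 6.34% of all. For Scn10a, Scn2a and Scn8a RefSeq also holds a transcript start further upstream than the one used.

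Spots were clustered by their expression with every sodium channel gene and their partner genes left out, and the clusters were joined into regions by marker lists. The ganglion region (sensory neuron markers such as Calca, Tac1 and Prph) held 310, 416 and 399 spots in TN1, TN2 and TN3 and 947 in HC. The central neuron region (Gad1, Slc6a5, Slc32a1 and others) held 403 spots in TN1 and 128 in TN2, and it had no spots in TN3 or HC. The peripheral myelin region (Pmp22, Prx, Drp2) held 423, 390 and 58 spots in TN1, TN3 and HC. The central myelin region (Mog, Mobp and others) held 190 to 480 spots in each of the 4 areas. Levels below are a gene's UMIs per 1000000 UMIs of a region in an area (CPM). A level of 1 gene is compared between regions and areas and not with the level of another gene, since capture differs between transcripts.

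Across regions, Scn9a, Scn10a and Scn11a were ganglion genes, Scn1a and Scn2a were highest in the central neuron region, and Scn4b was high in both. Scn3a, Scn8a and Scn2b were near the limit of detection, with 34, 139 and 74 UMIs over the whole ganglion region of all 4 areas.

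**Figure D1:**
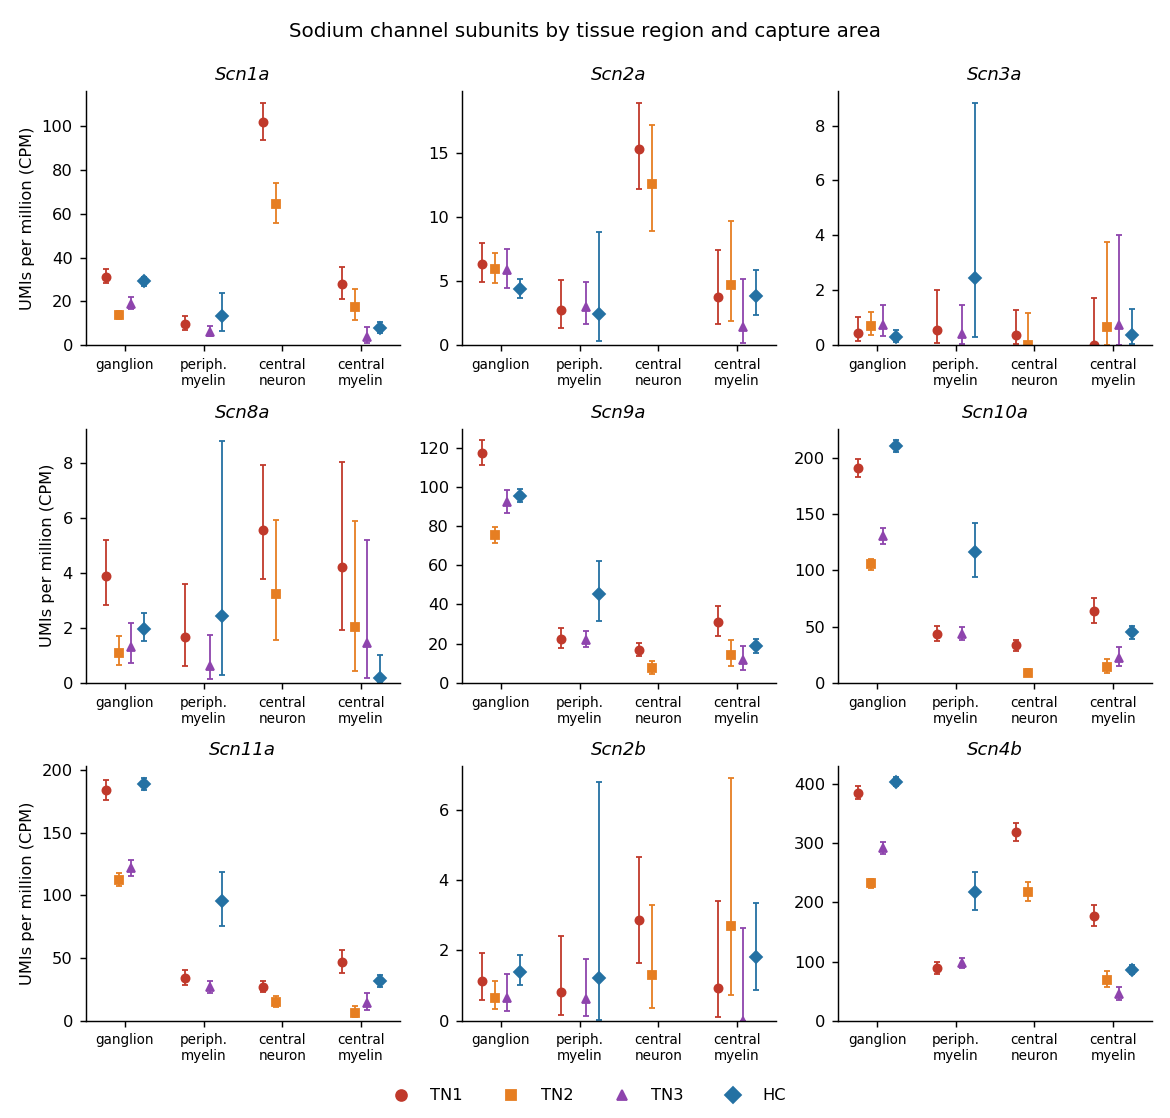
Level of each subunit in CPM (vertical axis, from 0) in 4 regions, with 1 point for each capture area and bars for the 95% Poisson interval of its count, which covers counting error only. Scn9a, Scn10a and Scn11a are highest in the ganglion in every area, Scn1a and Scn2a are highest in the central neuron region, and the wide bars of Scn3a, Scn8a and Scn2b reflect few UMIs.

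Scn10a, a channel that resists tetrodotoxin and carries most of the spike current of nociceptors, stood at 191, 105, 130 and 210 CPM in the ganglion region of TN1, TN2, TN3 and HC. In the central neuron region it was at 33.3 CPM in TN1 and 8.72 in TN2. In peripheral myelin it was at 43.6 CPM in TN1, 43.3 in TN3 and 116 in HC. In each area the ganglion value lay above those of the other regions, and peripheral myelin was higher in HC than in TN1 and TN3. The 58 peripheral myelin spots of HC also held 4672 CPM of 11 pan-neuronal genes (the neuron reference: Uchl1, Snap25, Syt1 and others), against 1591 and 1579 CPM in peripheral myelin of TN1 and TN3. Their part in the result was not tested.

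Scn11a, the channel of the persistent current near rest, stood at 184, 112, 122 and 189 CPM in the ganglion of TN1, TN2, TN3 and HC. Its central neuron values were 27.0 CPM in TN1 and 14.5 in TN2, and its peripheral myelin values were 33.9, 26.5 and 95.2 CPM in TN1, TN3 and HC. Scn9a, the threshold channel whose loss abolishes pain, stood at 117, 75.2, 92.4 and 95.4 CPM in the ganglion. Its central neuron values were 16.7 and 7.43 CPM, and its peripheral myelin values were 22.6, 22.1 and 45.2 CPM in TN1, TN3 and HC. In TN1, which held all 3 of these regions, the 3 genes had the same order, with the ganglion highest and the central neuron region lowest. Between the central regions of TN2 the counts were small. There Scn11a was higher in the central neuron than in the central myelin region (14.5 against 6.07 CPM, from 45 and 9 UMIs). Scn9a (7.43 against 14.2 CPM, from 23 and 21 UMIs) and Scn10a (8.72 against 14.2 CPM, from 27 and 21 UMIs) were lower. For each of the 3 genes the 95% Poisson intervals of these regions overlapped.

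Scn1a, the main channel of fast-spiking inhibitory neurons, stood at 102 CPM in the central neuron region of TN1 and 64.2 in that of TN2. In the ganglion it was at 31.4, 13.6, 19.0 and 29.1 CPM in TN1, TN2, TN3 and HC, and in central myelin at 27.7, 17.5, 3.59 and 7.83 CPM. In TN1 and TN2, the areas with central neuron spots, the central myelin values of Scn1a were higher than in TN3 and HC, as was the summed central neuron list there, with 278 and 187 CPM against 40.2 and 98.9. Scn2a, found along unmyelinated axons and at initial segments, stood at 15.3 and 12.6 CPM in the central neuron region and at 6.32, 5.96, 5.84 and 4.38 CPM in the ganglion. Scn8a, the channel of mature nodes of Ranvier, was at 5.58 and 3.23 CPM in the central neuron region and at 3.90, 1.10, 1.30 and 1.98 CPM in the ganglion. Scn3a had 5, 12, 8 and 9 UMIs in the ganglion of TN1, TN2, TN3 and HC and 2 and 0 in the central neuron region of TN1 and TN2.

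Of the beta subunits, Scn4b, whose cytoplasmic tail takes part in the resurgent current, stood at 386, 232, 291 and 405 CPM in the ganglion and at 319 and 218 CPM in the central neuron region of TN1 and TN2. The ranges of these regions overlap. It was lower in peripheral myelin, at 88.3, 97.1 and 217 CPM in TN1, TN3 and HC, and in central myelin, at 178, 68.7, 44.6 and 86.2 CPM. Scn2b, which binds the alpha subunit by a disulfide bond, had 13, 11, 7 and 43 UMIs in the ganglion and 16 and 4 in the central neuron region.

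These differences were tested with edgeR's quasi-likelihood test on the UMI sums of 22 combinations of region and area, with the area as a block and Benjamini-Hochberg adjustment over all genes tested. The regions were drawn from other genes of the same spots, so the tests ask which channels follow the outlines of the regions and not whether the regions exist. In sums of spots, fewer neurons and less RNA per neuron cannot be told apart. Between the ganglion and peripheral myelin, 6 of the 8 members tested were higher in the ganglion and none was lower, while 27.4% of all 12175 genes tested were higher and 19.5% lower, and 44.8% of the genes not used in clustering passed in either direction. The log2 difference was 1.87 ± 0.19 (SE) for Scn9a (adjusted p = 2.3e-07), 1.55 ± 0.22 for Scn10a (adjusted p = 9.93e-06) and 1.89 ± 0.24 for Scn11a (adjusted p = 4.08e-06). It was 1.41 ± 0.26 for Scn4b (adjusted p = 0.000139), 1.44 ± 0.32 for Scn1a (adjusted p = 0.000987) and 0.95 ± 0.35 for Scn2a (adjusted p = 0.0301). The Scn1a call was lost where spots were placed by marker score, without clustering (adjusted p = 0.102). The median over the 8 members was 1.43, against 0.05 over all genes and 1.77 over the 11 neuron reference genes. Scn2a rested on 27 UMIs in peripheral myelin, and its call was lost without TN1, TN3 or HC (adjusted p = 0.185, 0.0833 and 0.0509) and with another scaling (0.0551). Scn8a differed by 0.86 ± 0.56 (edgeR adjusted p = 0.222) and was called with 12 clusters (1.35, adjusted p = 0.0144). Scn3a did not pass the filter on low counts.

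Between the ganglion and the central neuron region the family split. The central neuron region had sums in TN1 and TN2 alone, so a fit without either area rested on 1 central neuron sum. Scn9a (log2 difference 2.83 ± 0.23, adjusted p = 9.53e-09), Scn10a (2.65 ± 0.28, adjusted p = 2.51e-07) and Scn11a (2.66 ± 0.30, adjusted p = 6.52e-07) were higher in the ganglion. Scn1a (-1.86 ± 0.27, adjusted p = 1.68e-05), Scn2a (-1.39 ± 0.29, adjusted p = 0.000639) and Scn2b (-1.37 ± 0.49, adjusted p = 0.0352) were higher in the central neuron region. In this edgeR fit 19.1% of all genes were higher in the ganglion, 16.5% lower, and 30.9% of the genes not used in clustering passed either way. Scn4b differed by 0.13 ± 0.28 (adjusted p = 0.747) and Scn8a by -0.92 ± 0.46 (adjusted p = 0.127). The neuron reference, which all neurons share, had a median log2 difference of -0.31. The Scn2b call rested on 20 UMIs in the central neuron region and was lost in 6 of 8 alternatives, which were leaving out any one TN area (adjusted p between 0.0699 and 0.596), DESeq2 (0.0539), no filter (0.0728) and log-normalised counts (0.0691). With spots placed by marker score the Scn1a call was lost (adjusted p = 0.0868), and without HC Scn8a was called (-1.08, edgeR adjusted p = 0.032).

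Scn1a (log2 difference 2.64 ± 0.31, adjusted p = 3.96e-06), Scn2a (1.87 ± 0.35, adjusted p = 0.000337) and Scn4b (1.65 ± 0.28, adjusted p = 0.000112) were higher in the central neuron than in the central myelin region by edgeR. In all, 20.6% of genes were higher, 16.1% lower, and 34.3% of the genes not used in clustering passed either way. The members of the ganglion group were not called, with -0.56 ± 0.26 for Scn9a, -0.53 ± 0.29 for Scn10a and -0.04 ± 0.32 for Scn11a. Scn9a was called lower with log-normalised counts (-0.76, adjusted p = 0.00968) and Scn10a without TN1 (-0.94, adjusted p = 0.0341), while the Scn1a call was lost by marker score (adjusted p = 0.133). Scn8a, at 1.30 ± 0.58 (edgeR adjusted p = 0.0857), was called with 8 clusters (2.35, adjusted p = 0.00422), 12 clusters (1.42, adjusted p = 0.0424) and log-normalised counts (1.99, adjusted p = 0.0268). RNA of the pain-related channels was counted in both regions, at 33.3 CPM of Scn10a in the central neuron and 63.9 CPM in the central myelin spots of TN1. The nociceptor list (Calca, Tac1, P2rx3, Trpv1 and others) stood at 361 and 573 CPM in the same spots, against 2731 CPM in the ganglion of TN1. The part of sensory RNA in these values was not tested.

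The genes whose levels over the 22 sums followed a member most closely, by Pearson correlation of log2(CPM + 5) among genes with a mean of at least 10 CPM, were named for each member as a description. Scn10a was most like Avil (r = 0.991), Trarg1 (0.981) and Fxyd7 (0.979). Scn11a was most like Trarg1 (0.984), Acpp (0.983) and Tlx2 (0.982), and Scn9a was most like Tyrp1 (0.971), Ppp1r1c (0.967) and Asic3 (0.966). Scn1a was most like the neuronal calcium sensor Vsnl1 (0.971), Sncb (0.964) and Gng13 (0.962), and Scn4b was most like Nrn1 (0.989), the potassium channel gene Kcnh2 (0.985) and Ache (0.984). Among the members themselves, r was 0.945 to 0.959 between Scn9a, Scn10a and Scn11a, 0.838 between Scn1a and Scn2a, and 0.248 between Scn1a and Scn10a. The sums share 4 libraries and their depth. The closest genes of Scn2a, Scn8a, Scn2b and Scn3a reached at most 0.863, 0.849, 0.68 and 0.767.

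As shares of the alpha subunit UMIs, Scn1a was larger in the central neuron region than in the ganglion, and Scn9a was larger in the TN than in the HC ganglion. Shares compare transcripts of unequal capture, so only the change of 1 gene's share between samples is read. Intervals are exact 95% binomial intervals and cover counting error only. Scn1a was 50.9% (47.9 to 53.9) of 1112 alpha subunit UMIs in the central neuron region of TN1 and 58.0% (52.6 to 63.3) of 343 in that of TN2, against 4.3% to 5.9% in the ganglion of the 4 areas. Scn9a was 22.0% (20.9 to 23.0) of 6163 in the ganglion of TN1, 23.9% (22.8 to 25.1) of 5433 in TN2 and 24.9% (23.5 to 26.3) of 4003 in TN3, against 18.0% (17.4 to 18.6) of 16324 in HC. Scn10a was 35.7%, 33.5% and 35.1% in TN1, TN2 and TN3 against 39.7% (38.9 to 40.4) in HC, and Scn11a was 34.5%, 35.8% and 32.8% against 35.6%. The Scn9a share of HC thus lay below all 3 TN shares, as did those of Scn2a and Scn3a, and that of Scn10a lay above them. The HC shares of Scn11a, Scn1a and Scn8a lay within the TN range. In ganglion CPM, HC lay outside the TN range for 59.3% of all genes tested. The shares of an area add up to a whole, so a change in 1 share moves the others. In the cluster richest in neurons alone, the Scn9a share was 21.3%, 21.8% and 24.7% in TN and 18.0% in HC. The neuron mix of the ganglion differed too. The nociceptor list stood at 2731, 2476 and 2652 CPM in TN1, TN2 and TN3 against 3025 in HC. A list of large-diameter neuron genes (Nefh, Pvalb and others) stood at 3824, 2678 and 3617 against 5853 CPM. The differences between TN and HC in these shares, and the part of this mix in them, were not tested.

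**Figure D2:**
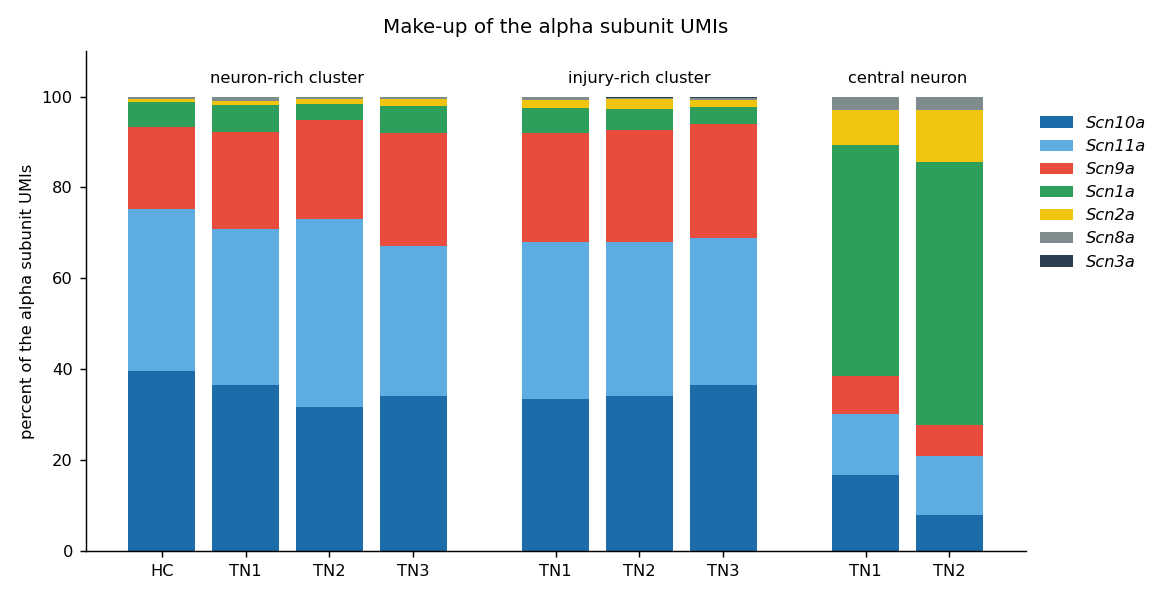
Share of each alpha subunit among the alpha subunit UMIs (vertical axis, percent, from 0 to 100), with 1 stacked bar for each capture area in the neuron-rich and injury-rich clusters that make up the ganglion region and in the central neuron region. Scn1a takes 50.9% and 58.0% in the central neuron bars, and Scn9a takes 21.3% to 24.7% in the neuron-rich bars of TN and 18.0% in that of HC.

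The ganglion region was made of 2 clusters. The neuron-rich cluster, led by Necab1, Nefl, Chrna3 and Tac1, held 204, 41 and 134 spots in TN1, TN2 and TN3 and 945 in HC. The injury-rich cluster, led by Gal, Csrp3, Vip and Reg3b, held 106, 375 and 265 spots in TN and 2 in HC. Cluster and condition are therefore tied, and the clusters were compared within the 3 TN areas alone.

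In the injury-rich cluster, 5 of the 7 members tested were lower than in the neuron-rich cluster and none was higher, with 15.0% of all 10729 genes lower, 17.4% higher, and 27.4% of the genes not used in clustering called either way. Scn11a was at 132, 90.5 and 101 CPM in the injury-rich cluster of TN1, TN2 and TN3, against 210, 246 and 142 CPM in the neuron-rich cluster (edgeR log2 difference -0.85 ± 0.11, adjusted p = 1.76e-06). Scn10a was at 127, 91.7 and 114 against 222, 188 and 146 CPM (-0.71 ± 0.09, edgeR adjusted p = 1.08e-06). Scn9a was at 91.4, 66.3 and 78.3 against 130, 129 and 106 CPM (-0.61 ± 0.09, edgeR adjusted p = 6.24e-06). The 3 genes were lower in the injury-rich cluster in 3 of 3 areas, as was Scn1a. The share of all genes with the same direction in every area was not counted.

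Scn1a was at 21.4, 12.2 and 11.9 CPM in the injury-rich against 36.3, 22.0 and 25.9 CPM in the neuron-rich cluster (-0.88 ± 0.13, edgeR adjusted p = 1.61e-05). Scn4b was at 337, 220 and 252 against 411, 305 and 329 CPM (-0.35 ± 0.06, edgeR adjusted p = 7.28e-05), lower in 3 of 3 areas although the ranges overlap. Scn2a, at 6.77, 5.93 and 5.09 against 6.10, 6.12 and 6.57 CPM, differed by -0.06 ± 0.23 (edgeR adjusted p = 0.873), and Scn8a by -0.74 ± 0.39 (adjusted p = 0.155). The 5 calls were kept without any one TN area. The 7 members had a median of -0.71, against 0.03 over all genes tested.

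The injury-rich spots also held less neuron RNA and more RNA of peripheral myelin, macrophage and connective tissue markers. The neuron reference was at 7379, 6099 and 5801 CPM in them against 8653, 8245 and 8075 CPM in the neuron-rich spots, with 7 of its 11 genes lower and a median log2 difference of -0.45. The 8 peripheral myelin genes were all higher, at 20793, 19071 and 28829 CPM in sum against 10674, 8775 and 14066 CPM, and 4 of 5 nociceptor genes tested were lower, with a median of -0.81. All 6 macrophage genes tested were higher (median 0.79), as were all 6 connective tissue genes (median 0.80). The part of these cells in the result was not tested. With the neuron reference as the library size, Scn11a (-0.49, edgeR adjusted p = 1.80e-05), Scn10a (-0.35, adjusted p = 0.00169), Scn1a (-0.53, adjusted p = 0.00449) and Scn9a (-0.26, adjusted p = 0.0315) were still lower. Scn4b then differed by 0.0012 (adjusted p = 0.991). With this library size edgeR called 5880 of the 10729 genes tested, in either direction, against 3472 in the fit above. Per 1000 neuron reference UMIs, Scn11a went from 24.3, 29.8 and 17.6 in the neuron-rich to 17.9, 14.8 and 17.4 in the injury-rich cluster, so that the difference was smallest in TN3. Scn10a went from 25.7, 22.8 and 18.1 to 17.3, 15.0 and 19.6, lower in 2 of 3 areas, and Scn9a from 15.0, 15.7 and 13.1 to 12.4, 10.9 and 13.5, also lower in 2 of 3. Scn1a went from 4.20, 2.67 and 3.21 to 2.89, 2.00 and 2.05, lower in 3 of 3.

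**Figure D3:**
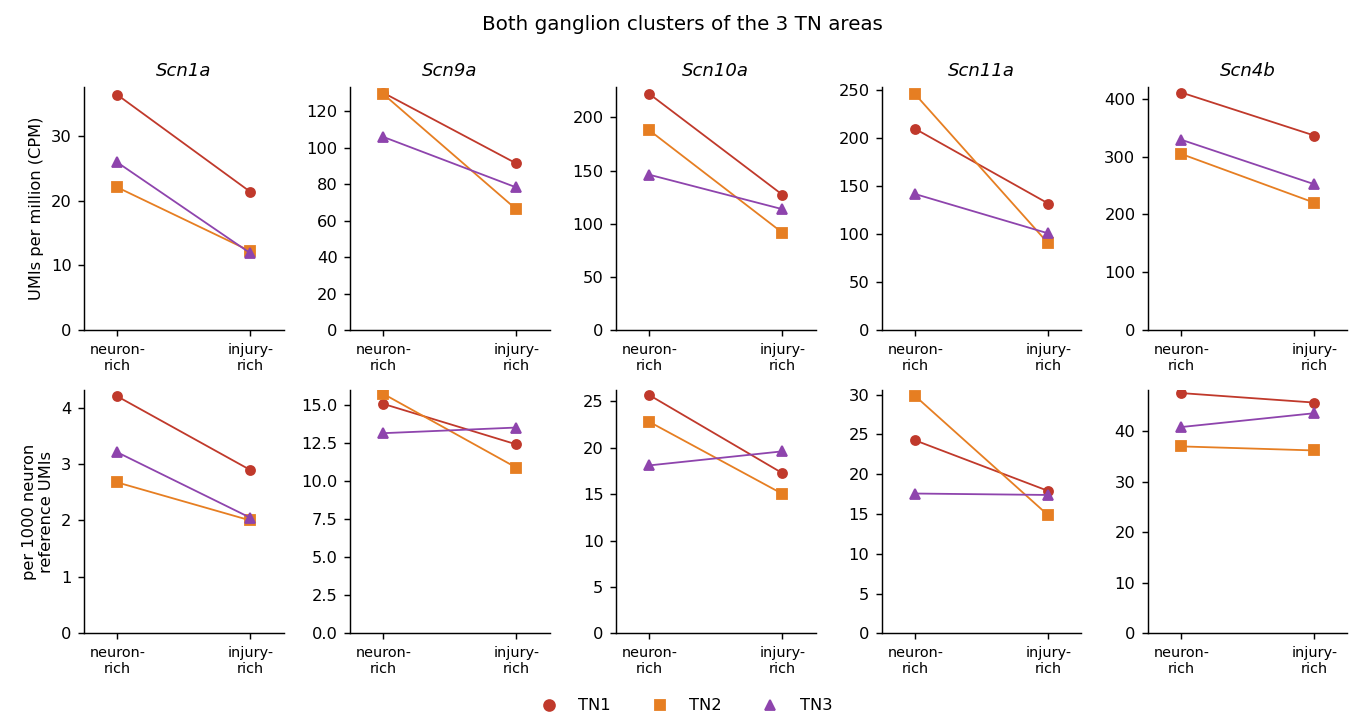
Subunit levels in the neuron-rich and the injury-rich ganglion cluster, with a line joining both clusters of each TN area, in CPM (upper row) and per 1000 neuron reference UMIs (lower row), both from 0. Lines fall in the upper row for Scn1a, Scn9a, Scn10a, Scn11a and Scn4b, and are flatter in the lower row, where the Scn9a, Scn10a and Scn4b lines of TN3 rise.

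TN was compared with HC, the study's own question, in the ganglion region, the central myelin region and all spots. No member was called in any of these fits. The edgeR fits had 3 areas against 1, so that HC was assumed to vary as TN did and 2 residual degrees of freedom remained. edgeR called 0% of 13047 genes in the ganglion, 0% of 9767 in central myelin and 0% of 14902 over all spots. Before adjustment its p was under 0.05 for 1295, 306 and 1271 of them, and DESeq2 called 132, 4 and 158.

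In the ganglion, TN averaged 142 ± 43.8 (SD, n = 3) CPM of Scn10a against 210 in HC (log2 difference -0.63 ± 0.33, edgeR adjusted p = 0.535) and 139 ± 38.9 CPM of Scn11a against 189 (-0.51 ± 0.30, adjusted p = 0.575). Scn9a averaged 95.0 ± 21.2 against 95.4 CPM (-0.08 ± 0.27, edgeR adjusted p = 0.933), Scn1a 21.3 ± 9.10 against 29.1 CPM (-0.52 ± 0.44, adjusted p = 0.678) and Scn4b 303 ± 77.6 against 405 CPM (-0.48 ± 0.29, adjusted p = 0.577). Scn3a, which adult sensory neurons hardly express, was at 0.433, 0.69 and 0.742 CPM against 0.292 in HC, from only 5, 12 and 8 UMIs against 9 (1.01 ± 0.77, edgeR adjusted p = 0.652). Scn2a averaged 6.04 ± 0.251 CPM against 4.38 (0.39 ± 0.31, edgeR adjusted p = 0.661). The HC value lay outside the range of the TN areas for 6 of 9 members (Scn2a, Scn3a, Scn10a, Scn11a, Scn2b and Scn4b), as it did for 59.3% of all genes tested. The neuron reference was also higher in HC, at 9757 CPM against 8230, 6403 and 6957.

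TN1 stood apart from TN2 and TN3 in the ganglion, with Scn10a and Scn11a near HC. The areas also differed in their mix of ganglion clusters. Neuron-rich and injury-rich spots numbered 204 and 106 in TN1, 41 and 375 in TN2, 134 and 265 in TN3 and 945 and 2 in HC. The part of this mix in the differences below was not tested. Fits without TN1 set 2 areas against 1, with 1 residual degree of freedom. TN1 was singled out by its Scn10a and Scn11a values, so the differences without it are given as a description. Such an edgeR fit called 932 genes in the ganglion, 2.53% of all tested being lower in TN, and among these were Scn10a (-0.91, adjusted p = 0.0241) and Scn11a (-0.76, adjusted p = 0.0374). In central myelin Scn10a was at 63.9, 14.2 and 22.3 CPM in TN1, TN2 and TN3 against 44.8 in HC, and Scn11a at 46.5, 6.07 and 14.4 against 31.5 CPM, so that TN1 lay above HC and the other two below it. Without TN1 the fit there called 458 genes, with 1.72% of all tested lower, and had Scn10a at -1.35 (adjusted p = 0.000577) and Scn11a at -1.68 (adjusted p = 0.00046), against -0.47 ± 0.66 and -0.53 ± 0.79 with all areas. Over all spots it called 2171 genes, 6.70% of all tested being lower, and 4 members, Scn9a (-0.95, adjusted p = 0.0238), Scn10a (-1.56, adjusted p = 0.013), Scn11a (-1.49, adjusted p = 0.0137) and Scn4b (-1.25, adjusted p = 0.0178). With all areas, the all-spot differences were -0.68 ± 0.34, -1.21 ± 0.41, -1.13 ± 0.41 and -0.83 ± 0.47 (edgeR adjusted p from 0.556 to 0.575). The neuron reference over all spots was 8199 CPM in HC and 6235, 4266 and 3211 in TN1, TN2 and TN3, and its part in these differences was not tested.

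Per 1000 neuron reference UMIs the order changed. Scn9a was at 14.3, 11.7 and 13.3 in the ganglion of TN1, TN2 and TN3 against 9.78 in HC, and Scn2a was at 0.768, 0.931 and 0.84 against 0.449. Scn10a (23.2, 16.4 and 18.7 against 21.5), Scn11a (22.4, 17.6 and 17.5 against 19.3), Scn1a (3.81, 2.12 and 2.73 against 2.98) and Scn4b (46.9, 36.3 and 41.9 against 41.5) had HC within the TN range. HC lay outside that range for 4 of 9 members on this scale, against 74.9% of all genes. The fit with this library size gave 0.42 for Scn9a (edgeR adjusted p = 0.373) and 0.91 for Scn2a (adjusted p = 0.299).

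In the neuron-rich cluster alone, Scn9a was at 130, 129 and 106 CPM in TN against 95.4 in HC (0.29 ± 0.17, edgeR adjusted p = 0.646). Scn2a was at 6.10, 6.12 and 6.57 against 4.39 CPM (0.46 ± 0.35, adjusted p = 0.726). Scn10a, at 222, 188 and 146 against 210 CPM, and Scn11a, at 210, 246 and 142 against 189 CPM, had HC within the range of the TN areas. No member was called, with 5 of 11730 genes (0.0426%) called in all. Scn9a and Scn2a were the 2 of 7 members whose HC value lay outside the TN range, both in CPM (53.5% of all genes) and per neuron reference UMI (62.8%), so their share was below that of all genes. This cluster held 41 of 416 ganglion spots in TN2 but 945 of 947 in HC. Its nociceptor list stood at 3061, 5274 and 3027 CPM in TN1, TN2 and TN3 against 3025 in HC. Its large-diameter list stood at 4326, 4265 and 4375 against 5854 CPM. The part of this neuron mix was not tested.

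**Figure D4:**
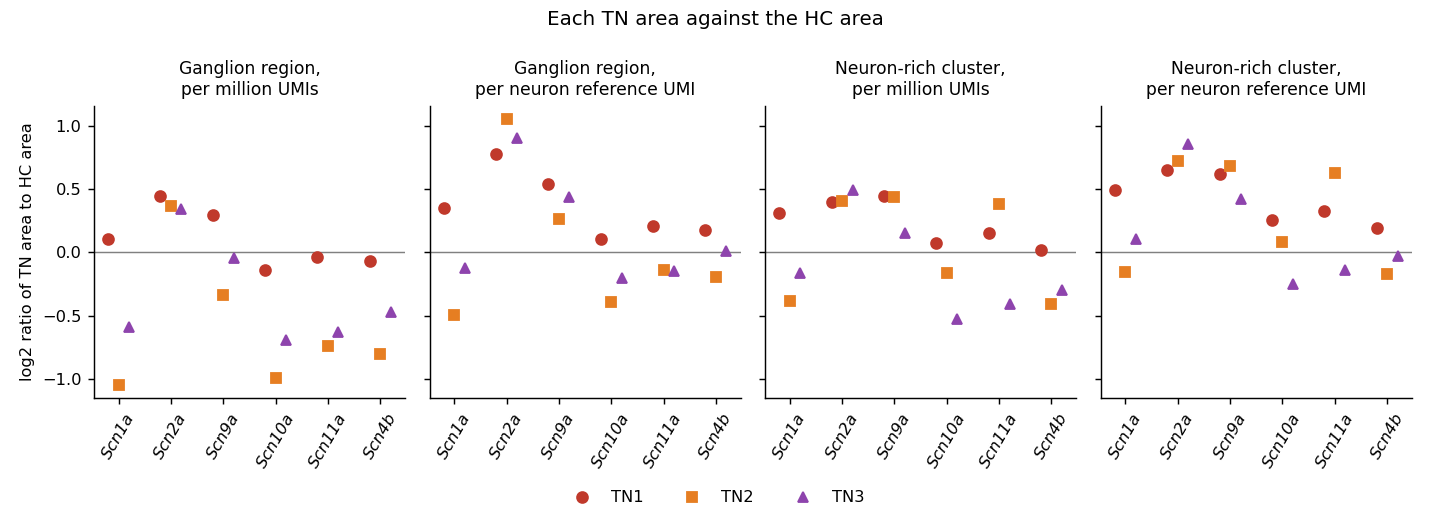
log2 ratio of each TN area to the HC area for 6 subunits (vertical axis, 0 is equal), with 1 point for each of TN1, TN2 and TN3, in the ganglion region and the neuron-rich cluster, from levels in CPM with 1 added or per neuron reference UMI. TN1 lies above TN2 and TN3 for Scn10a in the ganglion (191 against 105 and 130 CPM), and Scn9a and Scn2a lie above 0 in all 3 areas in the neuron-rich cluster on both scales.

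Of the 6 other family members, 1 was higher and 1 lower in the injury-rich cluster among 3 tested. Of all genes there, 17.4% were higher and 15.0% lower. Among 4 tested, 3 were higher and 1 lower in the ganglion than in the central neuron region, against 19.1% and 16.5% of all genes. Against peripheral myelin 2 of 4 were higher, where 27.4% of all genes were higher and 19.5% lower. With so few genes tested, these counts are given as a description. The beta subunit gene Scn3b was at 72.3, 68.3 and 52.3 CPM in the TN ganglion against 44.0 in HC (0.48 ± 0.23, edgeR adjusted p = 0.522). Within TN, Scn3b was higher in the injury-rich cluster (0.37 ± 0.08, edgeR adjusted p = 0.000975). Scn3b was also higher in the ganglion than in the central neuron region (2.36) and than in peripheral myelin (2.07), by log2 difference, and Scn7a was higher in the ganglion than in the central neuron region (1.96).

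Of 13 genes whose proteins bind or anchor sodium channels, 12 were tested. In the injury-rich cluster, where 15.0% of all genes were lower and 17.4% higher, 7 were lower, namely the fibroblast growth factor homologues Fgf12 (-0.93) and Fgf13 (-0.62), the nodal and axonal adhesion genes Cntn1 (-0.62), Nrcam (-0.55), Cntnap1 (-0.43) and Nfasc (-0.23) and the spectrin gene Sptbn4 (-0.41), and 1 was higher, S100a10 (0.18), which helps to carry Nav1.8 to the membrane. Against the central neuron region, where 19.1% of all genes were higher and 16.5% lower, Fgf13 (2.09), S100a10 (2.27) and Nedd4l (1.06) were higher in the ganglion, and 5 were lower, Fgf11 (-2.52), the anchor gene Ank3 (-1.16), Sptbn4 (-1.11), Dpysl2 (-0.92) and Nfasc (-0.49). Against peripheral myelin, where 27.4% of all genes were higher and 19.5% lower, 7 were higher and 2 lower (Nfasc at -0.60 and Ank3 at -0.48). None was called between TN and HC.

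The members differed in how many ganglion spots held them. Scn4b, Scn10a, Scn11a and Scn9a had a UMI in at least 66.9% of ganglion spots in every area, Scn1a in 33.1% to 61.0%, Scn2a in 12.8% to 21.3%, and Scn8a, Scn2b and Scn3a in at most 12.6%, 4.22% and 2.88%. Scn10a had a UMI in 97.4%, 88.9%, 75.7% and 97.8% of ganglion spots in TN1, TN2, TN3 and HC, at medians of 35080.5, 39940.5, 27226 and 28886 UMIs per spot. Outside the ganglion the Scn10a share was 12.3% in TN2 and 21.2% in TN3 in the astrocyte region, at medians of 12053 and 14898 UMIs, and 26.3%, 10.0%, 9.79% and 38.8% in central myelin of TN1, TN2, TN3 and HC, at medians of 5072, 7307.5, 4168.5 and 10812.5 UMIs. In blood and bone spots of HC it was 55.0% at a median of 6821 UMIs, so no region gave a background free of the gene. Thinned to 2000 UMIs per spot, with 0 to 58 shallower spots left out per area, the ganglion shares were 34.8%, 19.1%, 21.1% and 32.7%, against 0% and 3.3% in the astrocyte region, the former from 65 spots with an upper limit of 5.52%. The thinned Scn10a share was 9.14%, 1.69%, 5.53% and 9.94% in central myelin of TN1, TN2, TN3 and HC and 22.8% in blood and bone spots of HC. The thinned Scn9a shares were 16.5%, 14.7%, 17.0% and 17.0% in the ganglion of TN1, TN2, TN3 and HC, so HC differed from the TN areas by less than the counting error. Scn1a had a UMI in 66.5% and 71.9% of central neuron spots of TN1 and TN2.

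Within the neuron-rich cluster, spots with more nociceptor RNA tended to hold more Scn10a and Scn11a, and this is given as a description, since spots of an area share a library and the counts are sparse. After thinning to 10000 UMIs per spot, Pearson's r of Scn10a with the nociceptor list was 0.384 over 179 spots of TN1, 0.362 over 41 of TN2, 0.438 over 130 of TN3 and 0.223 over 902 of HC. For Scn11a it was 0.411, 0.213, 0.51 and 0.19, and for Scn9a 0.322, 0.283, 0.215 and 0.105. With the list of large-diameter neurons (Nefh, Pvalb, Ntrk3 and others) r was negative for the 3 genes in each area, from -0.029 to -0.43. With the depth of the spot before thinning, r of Scn10a was -0.097, 0.484, -0.132 and 0.021 in TN1, TN2, TN3 and HC. For Scn11a it was 0.080, 0.233, 0.117 and 0.057. In TN2 both were thus larger than with the nociceptor list, and the part of depth was not tested.

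**Figure D5:**
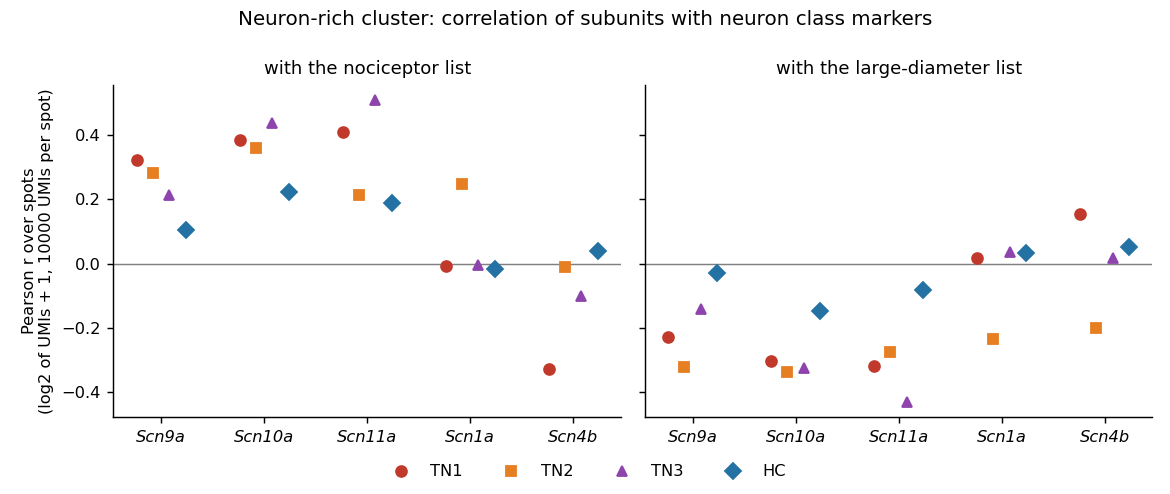
Pearson's r over spots of the neuron-rich cluster (vertical axis, each spot thinned to 10000 UMIs, log2 of UMIs + 1) between 5 subunits and the nociceptor list (left) or the large-diameter list (right), with 1 point for each area. Scn10a runs from 0.223 in HC to 0.438 in TN3 with the nociceptor list and is negative in all areas with the large-diameter list.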

How the data were processed

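The authors sequenced 4 Visium capture areas and deposited 1 matrix of UMI counts, whole numbers per gene and spot with no normalization, written by Space Ranger 1.2.0 per the file headers. STAR is listed in the submitters' processing notes, and the genome build and annotation were not given in the sources used here. Spots were normalized with SCTransform (sctransform 0.4.2, Seurat 5.3.0, R 4.3.3). Of 16088 genes seen in at least 10 spots, 3000 variable genes were used, with 28 channel genes left out, followed by 30 principal components and K-means with 10 clusters and 50 starts. A cluster took the name of the marker list with the highest mean log2(CPM + 5) after centring and stayed unnamed where the 2 best scores lay within 0.25. No doublet caller was run, since a spot is a patch of tissue. Counts were summed by region and area where at least 20 spots allowed, and the sums went through the quasi-likelihood test of edgeR 4.0.16, after filterByExpr and TMM scaling, with a Benjamini-Hochberg adjusted p under 0.05 as a call. DESeq2 1.42.0, its size factors, no filter, other clusterings, spots with at least 500 genes and 1000 UMIs, the neuron reference as library size and leaving out areas were the alternatives. The samples are separate capture areas. With the area as a block, p-values of the region fits rest on the spread left over all 22 sums of every region together. Those of the cluster fits rest on the 3 TN areas. Central neuron sums came from TN1 and TN2 alone, so p-values of contrasts with that region hardly measure how its differences vary between areas. Those of TN against HC rest on the spread between the TN areas, since HC was 1 area. The members and lists were chosen with earlier results of these data known. Named genes were the 9 members, the 2 related lists and the 3 genes most correlated with each member over region sums, among genes with a mean of at least 10 CPM. Of 131 list genes, 2 (Gfra1 and Cntnap2) were not found. Promoter windows are RefSeq sequence on GRCr8 and not the build of the counts. Some genes of the lists are not reported here.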

Additional observations from a re-analysis of the deposited data

How the results depend on the processing

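Within TN, the Scn9a, Scn10a, Scn11a, Scn1a and Scn4b calls held in each fit without 1 area. TN and HC could not be paired by animal, because HC was 1 capture area with 2 animals that cannot be told apart. The clusters within TN already had the area as a block. Without each area in turn, genes called ranged from 3756 to 5486 between ganglion and peripheral myelin, 2427 to 4262 between ganglion and central neuron and 2173 to 3907 between central neuron and central myelin. Between TN and HC they ranged from 0 to 932 in the ganglion (0 to 2 members), 0 to 458 in central myelin (0 to 2 members) and 0 to 2171 over all spots (0 to 4 members), the high values without TN1. DESeq2 called 1691 genes between the ganglion clusters, and between TN and HC 132 in the ganglion, 4 in central myelin and 158 over all spots. No filter gave 3 in the ganglion and 1 in central myelin, log-normalised counts 5 in the ganglion and the neuron-rich cluster alone 5. The neuron reference as library size gave 5880 between clusters and 466 over all spots. Spots placed by marker score gave 1942 between ganglion and central neuron and 2873 between central neuron and central myelin, where log-normalised counts called 5 members. With spots placed by marker score Scn1a was not called against peripheral myelin (0.97, adjusted p = 0.102), central neuron (adjusted p = 0.0868) or between central regions (1.12, adjusted p = 0.133). Signs that turned, as log2 differences, were of members not called except Scn4b between clusters (0.0012 with the neuron reference). Between ganglion and peripheral myelin Scn2b was -0.088 with DESeq2 size factors, -0.096 with DESeq2, -0.28 with 12 clusters, -0.33 with log-normalised counts and -0.21 to 0.23 with areas left out. With areas left out, Scn4b was -0.0050 to 0.29 between ganglion and central neuron, Scn11a -0.19 to 0.25 between central regions and Scn2a -0.22 to 0.086 between clusters. In TN against HC these ranges were -0.81 to 0.34 for Scn8a and -0.26 to 0.079 for Scn9a in the ganglion, -0.58 to 0.20 for Scn9a and -0.65 to 0.42 for Scn4b in central myelin, and -1.07 to 0.18 for Scn1a and -1.09 to 0.34 for Scn8a over all spots. Between central regions Scn11a was 0.11 with 8 clusters and 0.36 by marker score, which gave 0.085 for Scn9a and 0.36 for Scn10a. Scn2a between clusters was 0.12 with 12 clusters and 0.29 with the neuron reference. In TN against HC in the ganglion, log-normalised counts gave 0.14 for Scn8a and 0.23 for Scn9a, marker scores 0.048 for Scn9a, the neuron reference 0.45 for Scn8a, 0.42 for Scn9a and 0.0084 for Scn4b, and the neuron-rich cluster 0.45 for Scn8a, 0.29 for Scn9a and 0.011 for Scn11a. Scn9a in central myelin was 0.16 log-normalised and 0.17 by marker score. Over all spots the neuron reference gave 0.60, 0.73, 0.27, 0.19 and 0.074 for Scn1a, Scn8a, Scn9a, Scn2b and Scn4b. The cause of these changes was not tested. The cluster contrast could not be made by marker score or with log-normalised counts, nor TN against HC without HC. Depth limits Scn3a, Scn8a and Scn2b.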

Other observations

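Subunit RNA was also counted outside the regions compared. In blood and bone spots Scn10a stood at 104, 64.4 and 133 CPM in TN1, TN3 and HC and Scn4b at 322, 118 and 217 CPM. The sensory neuron list summed to 2873, 1808 and 3854 CPM in the same spots, which therefore held sensory neuron RNA. In the unnamed cluster, which had both connective tissue and peripheral myelin markers and spots only in TN2 and TN3, Scn10a stood at 33.8 and 32.5 CPM and Scn9a at 23.1 and 21.5 CPM. In connective tissue of these areas Scn10a stood at 30.2 and 38.1 CPM, and in the astrocyte region at 9.26 and 16.8 CPM.

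Scn11a UMIs were spread less evenly over neuron-rich spots in the TN areas than in the HC area. After thinning to 10000 UMIs per spot, the variance over the mean was 2.23, 1.87 and 2.18 in TN1, TN2 and TN3 and 1.48 in HC. For Scn10a (1.32, 1.19 and 1.52 against 1.29) and Scn4b, HC lay within the TN range. It lay just below that range for Scn9a and above it for Scn1a. The share of all genes with HC below the TN range was not counted. The neuron-rich cluster held 41 of 416 ganglion spots in TN2 but 945 of 947 in HC, so unlike sets of spots were compared. The difference in Scn11a was not tested.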
